A study of Mus musculus with 8 samples.

Results

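Integrins, laminins and the proteins of focal adhesions were examined as a set of 42 named genes in an m6A map of mouse VSMCs (vascular smooth muscle cells, which contract the wall of arteries). The genes were taken by name, with no measured value in the rule, out of 55450 annotated genes. Earlier results of these data were known when they were chosen. They fall into 15 receptors (integrin subunits), 11 matrix ligands (fibronectin, laminin chains, nidogens and perlecan) and 16 cytoplasmic adaptors (talins, Cas scaffolds, tensins, filamins, actinins and their partners). A gene was described by its summits, the single bases of strongest enrichment within m6A peaks, that lay in its annotated exons. Of 37799 exonic summits in the 4 peak lists, 201 lay in these genes.

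The cells were primary VSMCs from the descending aorta of young adult C57BL/6J mice, transduced with virus that expressed a short hairpin RNA (shRNA). The control group, shCTR, received a nontargeting shRNA, and the knockdown group, shMettl14, received an shRNA against Mettl14, a subunit of the m6A methyltransferase. Both groups thus carried virus and were whole populations of transduced cells, and only 1 Mettl14 shRNA was used. For m6A-RIP-seq, RNA fragments bound by an antibody to m6A (IP) were sequenced beside the same RNA before binding (input), with replicates A and B per group, which gives 4 IP and 4 input samples. Nothing in the labels says that A and B were separate cultures, so p-values measure the spread between these samples, which may be technical.

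Integrins are pairs of an alpha and a beta subunit that span the plasma membrane. Outside the cell they hold fibronectin, collagen or laminin, and inside it talin binds the beta subunit and recruits adaptors such as paxillin, the Cas scaffolds and tensins, which tie the receptor to actin and to kinases such as focal adhesion kinase. In the arterial wall these contacts carry the pull of smooth muscle on its basement membrane, and the receptors in use are known to shift when VSMCs leave the contractile state.

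The whole lists held 11158 (A) and 8655 (B) summits for shCTR and 13675 (A) and 9256 (B) for shMettl14, and strings of 4 values follow this order throughout. A summit is described here by its percentile, the rank of its fold enrichment among all summits of its own list, where 100 is the highest. It is also described by its pileup, the number of overlapping IP fragments, and by its background, the number of fragments expected there from the input; both were recovered from the deposited values. The median pileup was 13 to 16 fragments over all summits and 25.5 to 30 over those of the adhesion genes. Transcript level is not measured by such lists: a gene without a summit may be unmethylated, little expressed or below the reach of these libraries, and these cannot be told apart. For the same reason the markers of smooth muscle gave only a partial check of the cells. Lmod1, a leiomodin of smooth muscle, had summits in all 4 lists and Myh11, smooth muscle myosin, in some, while the other 6 of 8 markers (Acta2, Tagln, Cnn1, Myocd, Smtn and Des) had none. The endothelial markers Pecam1 and Cdh5 had summits in all 4 lists and Kdr in some (3 of 6 markers), the fibroblast markers Pdgfra and Col1a1 had them in all 4 (2 of 5), and Csf1r was the 1 of 6 immune markers with any. Before VSMCs were grown out of the aortas, the adventitia had been removed with enzymes and the endothelium by scraping. The markers with summits in all 4 lists (Lmod1, Pecam1, Cdh5, Pdgfra and Col1a1) were compared by mean percentile. Of these, only Pdgfra was lower in both shMettl14 lists than in both shCTR lists, where 18.4% of all 3492 genes with summits in all 4 lists were. The part of such other cells in the results was not tested, and in bulk RNA fewer cells of a type and less RNA per cell cannot be told apart.

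m6A summits were present in a larger share of receptors and adaptors than of matrix ligands, and the share of each role lay above that of all coding genes. In all, 25 of the 42 genes had an exonic summit in at least 1 list and 21 in all 4. Of all 21619 genes with a complete coding transcript, 25.6% and 16.2% did. This comparison takes no account of expression, nor of the earlier results known when the genes were chosen. The share with any summit was 11 of 15 receptors, 4 of 11 matrix ligands and 10 of 16 adaptors. The receptors without a summit were Itga1 and Itga2, alpha subunits of collagen receptors, Itga7, the laminin receptor subunit of muscle, and Itgav, which pairs with several beta subunits to bind RGD sequences. Among ligands, 6 of 7 laminin chains (Lama1, Lama2, Lama4, Lama5, Lamb1 and Lamb2) and the nidogen Nid1 had none. Among adaptors, Tln1 (talin), Zyx (zyxin), Ilk (integrin-linked kinase), Parva (its partner parvin), Flna (filamin) and Actn4 (actinin) had none. Several close relatives differed in this respect: Tln2, Flnc, Actn1 and Nid2 had summits in all 4 lists, whereas Tln1, Flna, Actn4 and Nid1 had none in any. Itgb8 and Pxn (paxillin) had a summit in 1 list, both in shCTR B, Fn1 (fibronectin) in 2 and Itgb3 in 3.

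**Figure D1:**
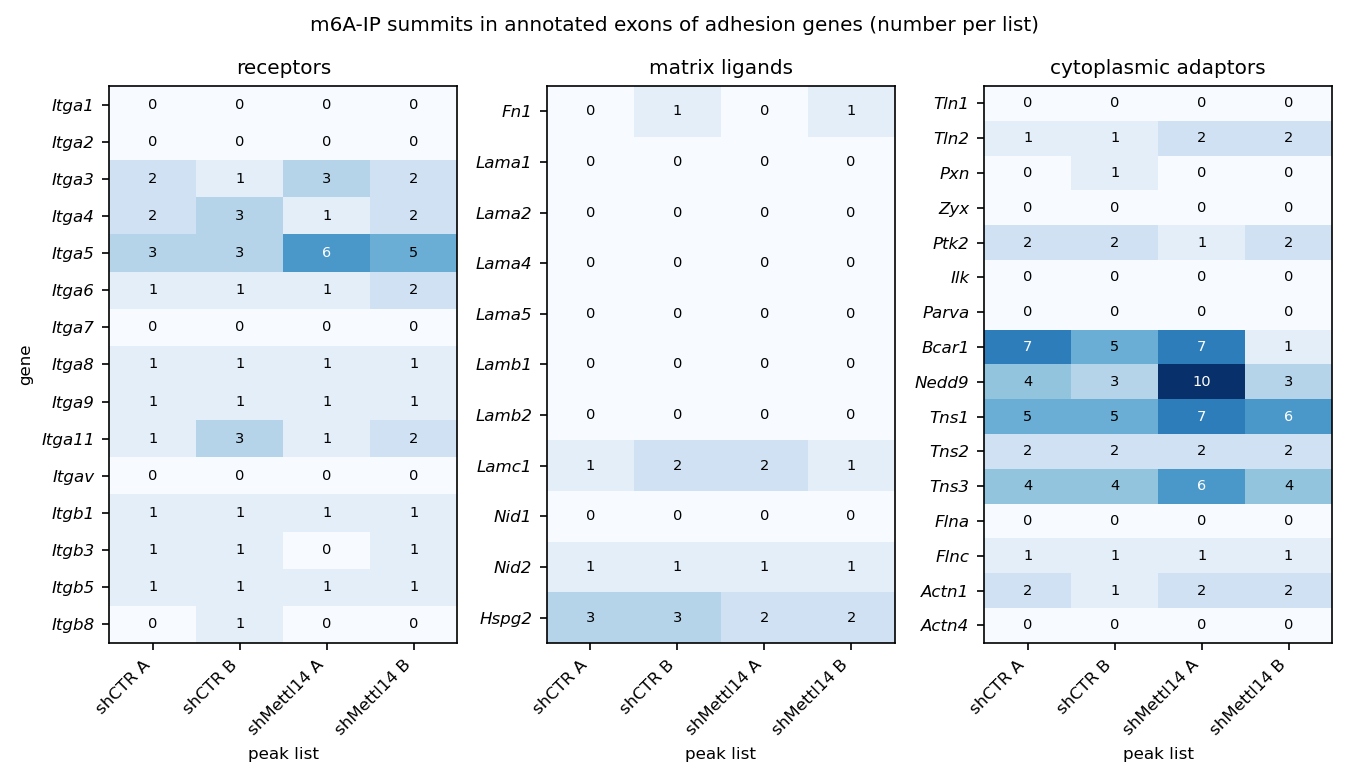
Number of exonic m6A summits (numbers and shade) of each of the 42 adhesion genes (rows, 1 panel per role) in each peak list (columns). Tns1 had 5 to 7 summits per list and Nedd9 3 to 10, while 17 genes had none in any list, among them 6 of the 7 laminin chains.

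Summits were unevenly spread among the genes. The 5 genes with the most, Tns1 (23 over the 4 lists), Bcar1 and Nedd9 (20 each), Tns3 (18) and Itga5 (17), held 98 of the 201, or 48.8%. Per kb of transcript, the mean of the 4 lists was 0.179 ± 0.019 summits in receptors, 0.0618 ± 0.011 in matrix ligands and 0.323 ± 0.075 in cytoplasmic adaptors (SD over the lists, n = 4). Adaptors lay above receptors and receptors above ligands in each list. Most of the adaptor summits lay in Tns1, Bcar1, Nedd9 and Tns3, so the adaptor value is not that of a typical adaptor. All coding genes had 0.138 ± 0.028, below receptors and adaptors and above ligands. When only genes with a summit were counted, the densities were 0.263 in receptors, 0.157 in ligands and 0.486 in adaptors, against 0.386 ± 0.079 in all coding genes with one. These are descriptions, since the genes of a role are not replicates of it.

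To show what lies under the strongest signals of each role, DRACH sites were read in its 3 strongest regions found in all 4 lists. The region of Actn1 described further on was added. The site nearest to the median summit was taken. Matrix ligands had only 3 regions in all 4 lists, among them that of Lamc1, at a mean percentile of 23.7. DRACH is the consensus that the methyltransferase prefers, with D for A, G or T, R for A or G and H for A, C or T. Each sequence is the mRNA strand as DNA letters, 5′ to 3′, from the GENCODE M21 transcript (GRCm38), with the site in capitals.
Itga4: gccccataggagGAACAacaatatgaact
Itga5: acttggggagtgAGACCtggcaactccaa
Itga8: cgatggaatctcAGACAcctccctatgga
Lamc1: caggaaggtgtcTGACCtggagagcgagg
Nid2: tctggatttcagGGACCcagcggagcttt
Hspg2: ggctggtgggcaGGACAaggggactggaa
Nedd9: caacaaagtcagGAACTccagcaaccagc
Tns2: ggtgatcctggaGGACCctggggtgcctg
Tns3: acatcagtgatgGAACTgaggaggagatg
Actn1: agcagcctctgcGAACAgagccgcggcgg
They lie at chr2:79327325-79327353 (plus strand, Itga4), chr15:103344805-103344833 (minus, Itga5), chr2:12108707-12108735 (minus, Itga8), chr1:153221610-153221638 (minus, Lamc1), chr14:19768651-19768679 (plus, Nid2), chr4:137569850-137569878 (plus, Hspg2), chr13:41311819-41311847 (minus, Nedd9), chr15:102111704-102111732 (plus, Tns2), chr11:8434038-8434066 (minus, Tns3) and chr12:80260262-80260290 (minus, Actn1). The methylated base was not measured at single-base resolution, so a site in capitals is the nearest match and not a called site. A DRACH match lay within 50 nt of 91.5% to 97.8% of the summits in these genes, and of 95.0% to 96.2% of all summits in single coding genes, so the match does not set the adhesion genes apart. The letters GGACT, the commonest form cited for m6A, lay within 50 nt of 17.5% to 27.9% of the member summits and 19.8% to 23.6% of all.

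Among receptors, the highest mean percentiles lay in the 3′ UTRs of Itga8, Itga5 and Itga4. Itga5 encodes the alpha subunit of the classical fibronectin receptor (ENSMUSG00000000555.8, chromosome 15, 103344286 to 103366763, minus strand). Its region at chr15:103344305-103345403, in the last exon, had its strongest summit at percentiles 93.1, 94.8, 94.4 and 91.8. The pileups there were 74, 85, 54 and 57 fragments, high against the list medians in all 4. Itga5 had 3, 3, 6 and 5 summits, more in both shMettl14 lists than in both shCTR lists. Itga8, a subunit prominent in smooth muscle, had 1 summit per list at chr2:12108548-12109059, at percentiles 95.9, 96.0, 95.9 and 89.0 (pileups 42, 28, 28 and 26). Only shMettl14 B lay apart. Itga4, which binds fibronectin and the endothelial ligand VCAM1, had its strongest region at chr2:79327192-79327666, 726 nt into the 3′ UTR of a last exon of 6604 nt. Its percentiles were 69.2, 94.3, 99.2 and 99.1, and shCTR A, with 10 fragments, was the low list. Itga3, a laminin receptor subunit, had 8 summits in all, with its strongest at percentiles of 92.1, 88.1, 90.0 and 86.2. Itga11, a collagen receptor subunit of mesenchymal cells, had 7, with its strongest at 75.6, 48.7, 59.3 and 65.0. The shCTR lists lay far apart, while the group means were 62.2 in shCTR and 62.1 in shMettl14.

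The beta subunits differed among themselves. Itgb1, the beta subunit shared by most of the receptors above, had 1 summit per list, 292 to 321 nt past the stop codon, and it ranked near the bottom of each list: percentiles 6.98 and 14.8 in shCTR and 0.190 and 3.21 in shMettl14. Its background was high, at 6.29, 4.89, 4.23 and 3.10 fragments, so a low fold enrichment went with many input fragments. Its rank depended on the measure: it was at percentiles 82.1, 80.7, 52.9 and 60.6 by pileup and 43.6, 51.3, 0.044 and 10.1 by −log10 p. Itgb5, a partner of Itgav, stood high in each list, with percentiles of 80.4, 92.9, 97.0 and 87.0. Itgb3, of the vitronectin receptor, had a coding summit in exon 10 in 3 lists (percentiles 12.9, 42.6 and 18.8) and none in shMettl14 A. The summit of Itgb8 in shCTR B rested on 6 fragments. The remaining receptors with summits, Itga6 and Itga9, had their strongest summits between percentiles 31.3 and 78.4 and between 53.4 and 92.3.

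Matrix ligands had fewer summits, most of them on a higher background. Over the ligand summits, the median background was 4.08 to 6.96 fragments in the 4 lists, against 1.14 to 2.26 over receptor summits and 0.637 to 1.13 over all exonic summits. Hspg2, which encodes the heparan sulfate proteoglycan perlecan, had 3, 3, 2 and 2 summits, all in the last of its 97 exons at chr4:137569543-137570423. The strongest was at percentiles 58.2, 69.7, 69.2 and 76.0, with pileups of 76, 74, 63 and 57. Nid2, a nidogen that links laminin to collagen, had 1 summit per list in its 728-nt exon 4, at chr14:19768516-19768784. The percentiles were 58.8, 74.9, 78.0 and 81.3, with pileups of 13, 25, 16 and 17, so both shMettl14 lists lay above both shCTR lists on few fragments. Its backgrounds, 0.616, 1.31, 0.601 and 0.440, were far below the medians of the ligands, which Hspg2 and Lamc1 (16 of 22 summits) set. Lamc1, the laminin gamma chain common to most laminins, was the 1 laminin chain with a summit. It had 1, 2, 2 and 1 summits. The strongest of each list lay at -162 to -134 nt from the stop codon (negative values are upstream), at chr1:153221134-153221763, with percentiles of 11.8, 20.02, 36.1 and 27.1 and pileups of 39, 38, 40 and 30. The rank of this region depended on the measure: its mean percentile was 23.7 by fold enrichment, 64.8 by −log10 p and 12.9 among equal numbers of top peaks. The other 2, 248 and 289 nt into the 3′ UTR in shCTR B and shMettl14 A, were weaker. Fn1 had a summit in its 467-nt exon 40 in shCTR B and in shMettl14 B, where the pileups were 68 and 37 and the backgrounds 15.9 and 11.4. These summits were among the lowest of their lists by fold enrichment, at percentiles 2.52 and 0.0540, and among the highest by pileup, at 97.4 and 92.5.

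Cytoplasmic adaptors held the densest signals, with some very strong regions among many weak summits. The median percentile of their summits was 42.6, 44.4, 37.1 and 46.7 in the 4 lists, below that of receptor summits (79.4, 48.7, 83.3 and 78.8) in each. The 3 tensins among the 42 genes, which bind the integrin beta tail and actin filaments, had summits in all 4 lists. The region in the 3′ UTR of Tns3 at chr11:8433819-8434447 had the highest mean percentile over the lists of the 42 genes, at 97.5, 99.1, 99.1 and 98.9, with pileups of 109, 87, 84 and 76. The groups overlapped. Tns2 had its signal in the coding sequence, in exon 18, at chr15:102111392-102112176 and percentiles 96.9, 93.7, 87.1 and 95.9. Tns1 had 5, 5, 7 and 6 summits in 3 regions, the strongest of them in exon 19 at percentiles 64.0, 68.1, 72.3 and 74.7. The backgrounds there were 8.41, 7.87, 5.48 and 3.82, among the higher ones of the set.

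Of the Cas family scaffolds, which are phosphorylated at adhesions and recruit Crk, Nedd9 ranked high and Bcar1 (p130Cas) was densely covered. The region of Nedd9 just before its stop codon, chr13:41311636-41312117, was at percentiles 97.2, 95.9, 99.1 and 93.0 (pileups 48, 33, 43 and 23). Nedd9 had 4, 3, 10 and 3 summits, so shMettl14 A stood apart from the other 3 lists. Bcar1 had 7, 5, 7 and 1, and here shMettl14 B stood apart. Its exon 5 region, chr8:111713401-111714069, was the only 1 of its 5 regions found in all 4 lists, at percentiles 59.2, 58.5, 34.1 and 19.2, and both shMettl14 lists were lower than both shCTR lists. Ptk2, focal adhesion kinase, had its strongest summit at 89.2, 56.0, 87.0 and 61.3, where the A lists were high and the B lists low. Flnc, the filamin of muscle, and Tln2, a talin, each had 1 region in the last exon in all 4 lists, at percentiles of 40.8 to 70.7 and 25.9 to 38.6.

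**Figure D2:**
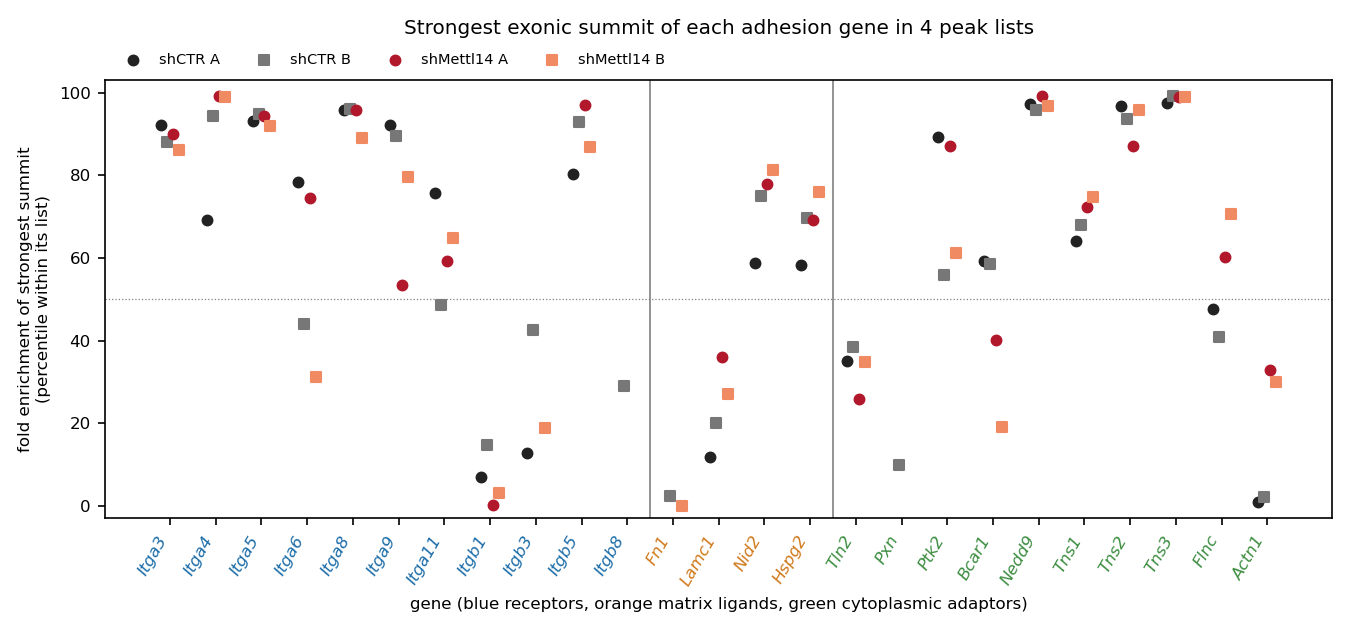
Percentile of fold enrichment within its list (vertical axis) of the strongest exonic summit of the 25 adhesion genes with any summit (horizontal axis, coloured by role), 1 symbol per peak list. Tns3, Nedd9, Tns2, Itga3, Itga5 and Itga8 stand near the top in all 4 lists, and Itgb1, at 14.8 or less, and Fn1 stand near the bottom.

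The place of the summits in the transcript differed by role. Of 65 receptor summits, 60 lay in a 3′ UTR, 3 in coding sequence (all in Itgb3), 1 in a 5′ UTR and 1 outside the chosen transcript. Of 114 adaptor summits, 66 lay in coding sequence and 42 in a 3′ UTR. The 22 ligand summits were split, with 10 coding and 12 in a 3′ UTR. Over all adhesion genes, 54.2% to 62.2% of summits per list lay in the 3′ UTR, against 29.8% to 32.0% of all summits in coding genes, and 35.6% to 42.4% lay in coding sequence, against 65.8% to 67.6%. No test was made across genes, and 5 genes held 48.8% of the summits.

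**Figure D3:**
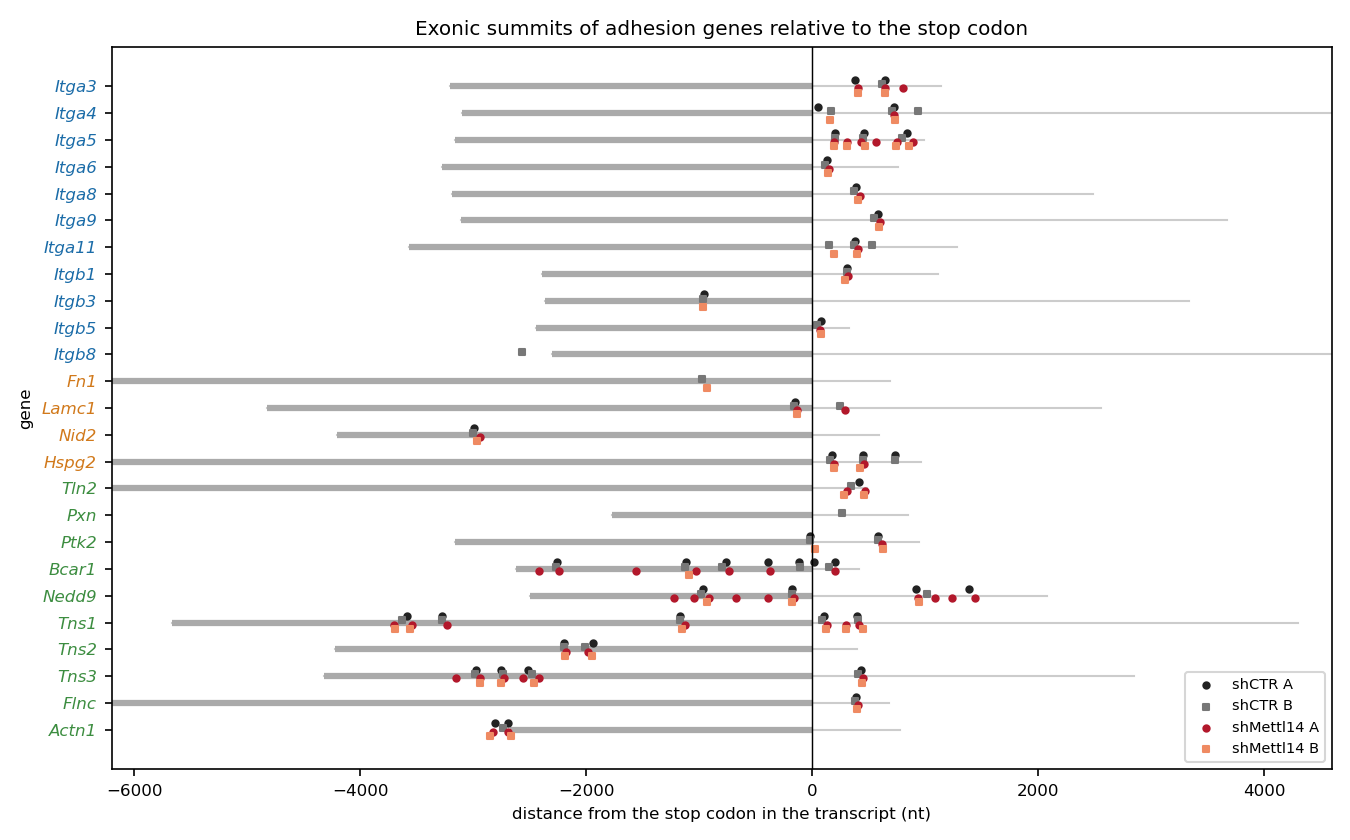
Exonic summits of the 25 adhesion genes with any summit (rows) by distance from the stop codon in nt (horizontal axis, 0 at the stop codon), 1 symbol per peak list; the thick line is the coding sequence and the thin line the 3′ UTR, and lines that reach the frame run on beyond it. The receptors, except Itgb3 and Itgb8, have their plotted summits to the right of the stop codon, and Tns1, Tns2, Tns3, Bcar1, Nedd9 and Nid2 have summits well inside the coding sequence.

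What these positions shared was a long exon. In each list 95.6% to 98.0% of the summits in adhesion genes lay in exons of over 400 nt, and so did 97.4% to 98.3% of all summits in coding genes. Of the 1278 exons of 400 nt or less in the 42 genes, 1 held a summit, the first exon of Actn1. Among longer exons, 19 of 36 last exons held a summit, as did 10 of 19 inner exons (52.6%), against 23.6% and 38.2% over all coding genes. Among genes with a summit the order was the other way: 19 of 25 last exons and 10 of 17 inner exons (58.8%) of the adhesion genes held one, against 81.5% and 71.9% over all coding genes with a summit. The inner exons were those of Itgb3, Fn1, Nid2, Bcar1 (exons 2 and 5), Nedd9, Tns1 (exons 19 and 26), Tns2 and Tns3. Tns1, Tns2 and Tns3 each carry a coding exon of 1212 to 1530 nt (exons 19, 18 and 17), and it held a summit in all 4 lists in each of them. Among receptors, whose summits lay in the last exon in all but 5 of 65 cases, 4 have an inner exon of over 400 nt (Itga3, Itgb3, Itgb5 and Itgb8, 403 to 528 nt), and only that of Itgb3 held a summit.

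Exon lengths also differed among the laminin chains. Lama1, Lama2, Lama5, Lamb1 and Lamb2 have no exon of over 400 nt, Lama4 has only its first, and none of the 6 had a summit. Lamc1 ends in an exon of 2808 nt and had one in all 4 lists. Over all coding genes, 53 of 3111 without such an exon (1.70%) had a summit in the chosen transcript, against 28.5% of the others. Other genes had long exons and no summit: Itga1, with a last exon of 7039 nt, Itgav (3677 nt), Itga2 (3485 nt), Parva (3153 nt), Nid1 (2324 nt) and Zyx (1371 nt) had none in any list. Whether the genes without a summit were expressed was not tested. Across the 42 genes, the share of the transcript in long exons and the number of summits per kb had a Spearman's rho of 0.40 (Pearson's r 0.45), against 0.18 (0.17) across 21619 coding genes. These are descriptions across genes that share the same libraries, and transcript level was not measured.

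**Figure D4:**
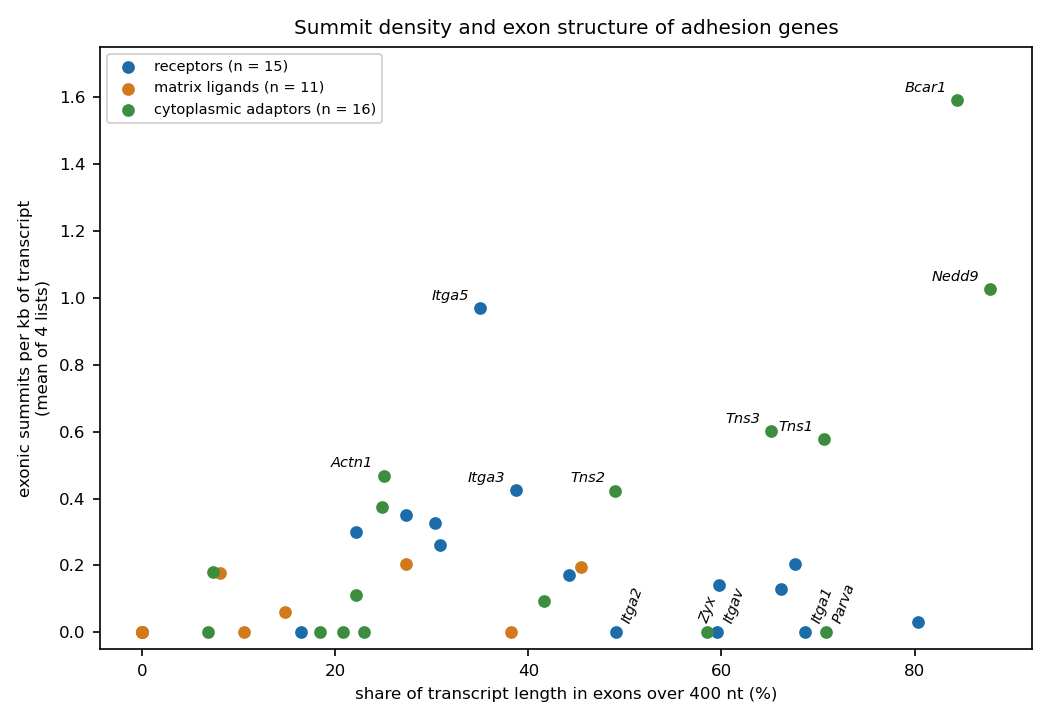
Exonic summits per kb of transcript (vertical axis, mean of 4 lists) against the share of transcript length in exons of over 400 nt (horizontal axis, %), 1 point per adhesion gene coloured by role. Bcar1, at 1.59 summits per kb, and Nedd9, at 1.03, have the longest share, while Itga1, Itga2, Itgav, Parva and Zyx have long exons and no summit.

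To determine whether the adhesion genes changed after Mettl14 knockdown, their summits were first counted. There were 47 and 49 in the shCTR lists and 59 and 46 in the shMettl14 lists. The means were 48.0 ± 1.4 and 52.5 ± 9.2 (SD, n = 2 lists per group), a ratio of 1.09 against 1.17 over all exonic summits. The shMettl14 lists lay on either side of the shCTR lists, and the difference of 4.5 was within their spread (exact permutation test, two-sided, p = 1; 4 lists allow no p below 0.333). Without shMettl14 A the difference was -2.0. By role, receptors had 14, 17, 16 and 18 summits, ligands 5, 7, 5 and 5, and adaptors 28, 25, 38 and 23, and in each role the groups overlapped.

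Near the stop codon, within 200 nt of it, lay 23.4% and 24.5% of the adhesion summits in shCTR and 11.9% and 22.2% in shMettl14. Both shMettl14 lists were lower than both shCTR lists, by 6.9 percentage points on average, which gives the smallest p this design allows (exact permutation test, two-sided, p = 0.333). The low value of shMettl14 A carried most of this: without it the difference fell to -1.7 points. Over all coding genes the shares were 26.9%, 26.9%, 25.4% and 27.1%.

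No region of an adhesion gene was gained or lost in both replicates. The summits fell into 36 regions, made by merging overlapping peaks of the 4 lists. Of these, 26 (72.2%) were found in all 4 lists, against 51.9% of regions with a summit in an exon of a coding gene. Regions in both shCTR lists and no shMettl14 list numbered 0, where 1.71% of all 11361 regions had this pattern, and regions in both shMettl14 lists and no shCTR list also numbered 0, where 1.79% had it. Among the authors' own replicate overlaps, 29 of the 36 regions were in the shCTR file and 25 in the shMettl14 file. Of the 36, 5 were in the first only (Itgb1, Itgb3, the weaker region of Itga4 and 2 regions of Bcar1), where 8.21% of all regions were, and 1 (Actn1) was in the second only, where 7.38% were, although Itgb1 and Actn1 had a summit in all 4 lists.

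The 26 shared regions were then compared by rank. Fold enrichments were ranked within each list, turned into normal scores and tested with limma over all 4929 regions found in all 4 lists. No adhesion region passed an adjusted p of 0.05 (smallest 0.796), and 0% of all regions did. At an unadjusted p under 0.05, 2 adhesion regions were higher in shMettl14, where 2.41% of all regions were, and 0 were lower, where 2.52% were. Fisher's exact test on recovered pileups, which sets these libraries against each other, likewise called 0 of 26 after adjustment, and 2 before it, where 3.21% of all regions were called. Itga4 was higher in shMettl14 (0.79 on the log2 scale) and Itgb1 lower (-0.72). The median change of the 26 was -0.036 on the normal score scale and that of all regions 0.0021. Lower were 14 of the 26 and 2458 of all 4929. By role, the medians were -0.18 over 9 receptor regions (7 lower), 0.39 over 3 ligand regions (0 lower) and 0.023 over 14 adaptor regions (7 lower). The standard error of a single adhesion region was 0.49 to 0.53.

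The 2 regions with an unadjusted p under 0.05 in the rank test were in Actn1 and Itga4. In Actn1, an actinin that crosslinks actin at adhesions, the region in exon 1 (chr12:80260002-80260355) had its strongest summit at percentiles 0.986 and 2.08 in shCTR A and B and 32.8 and 30.1 in shMettl14 A and B. These summits lay at different bases of the exon, and the region also held weaker shMettl14 summits at percentiles 0.0073 (A) and 4.72 (B), the first of them below both shCTR lists. The change was 1.68 ± 0.49 (SE; limma, adjusted p = 0.796). The pileups at the strongest summits were 40, 56, 36 and 21, and the backgrounds 10.7, 13.4, 4.96 and 2.40, lower in both shMettl14 lists. Fisher's exact test on the pileups gave the opposite sign, at -0.45 (log2). The summits also lay in an exon of Gm47766, an antisense gene on the other strand, and the lists carry no strand, so the source of these fragments is uncertain. In Itga4 the change was 1.46 ± 0.53 (SE; limma, adjusted p = 0.927). The pileups were 10, 30, 22 and 34 on backgrounds of 0.0912, 0.750, 0.0715 and 0.413 fragments, and neither divided by group. Without shCTR A, the list with 10 fragments, the change was 0.76.

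**Figure D5:**
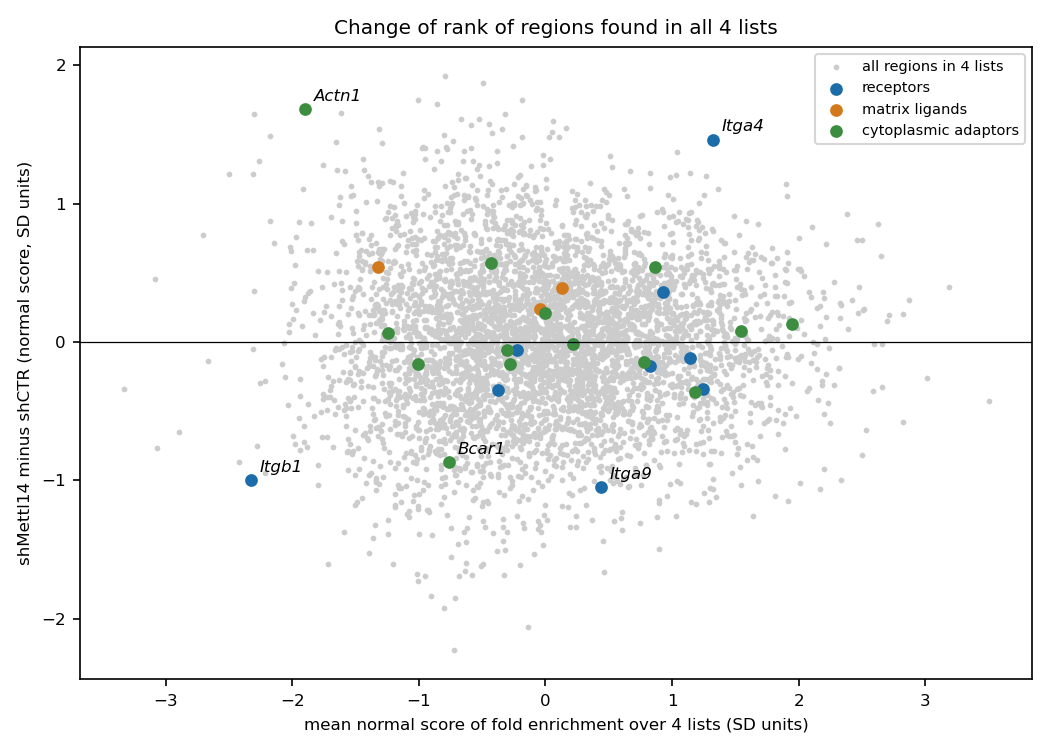
Change of each region between groups (vertical axis, shMettl14 minus shCTR, normal score of fold enrichment) against its mean normal score over the 4 lists (horizontal axis), for the 4929 regions in all 4 lists (grey) and the 26 of adhesion genes (coloured by role). Adhesion regions lie within the cloud, with Actn1 at 1.68 and Itga4 at 1.46 at its upper edge and Itga9 at -1.05 near its lower edge.

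At the level of genes, the mean percentile of all summits of a gene was compared in the 21 genes with summits in all 4 lists. In 7 both shMettl14 lists were lower than both shCTR lists, where 18.4% of all 3492 such genes were, and in 7 both were higher, where 14.6% were. The median change was -3.5 percentile points, and -1.5 over all 3492. The lower genes were the receptors Itga5, Itga8, Itga9 and Itgb1 and the adaptors Bcar1, Tln2 and Tns3. The higher ones were Itga4, all 3 ligands (Lamc1, Nid2 and Hspg2) and the adaptors Actn1, Flnc and Ptk2. Such a mean also moves with the number of summits of a gene and with the size of a list. With the strongest summit of each gene in place of the mean, 5 genes were lower and 6 higher, where 14.4% and 17.6% of all such genes were. With equal numbers of top peaks, ranked again, 8 of 19 genes were lower and 3 higher, where 20.9% and 13.0% of all 3022 such genes were. Of the genes named, 3 (Itga8, Itga9 and Bcar1) were lower and 2 (Itga4 and Actn1) higher in all 3 versions. The same count was not made over all genes. Itga8 and Itga9 had 1 summit per list, so their mean and their strongest summit are the same value. In Itga8, shMettl14 A lay at 95.86 against 95.93 and 95.97 in shCTR. No ligand was higher with equal numbers, where Itgb1 and Tln2 no longer had a summit in every list. Ptk2 was higher by mean percentiles of 55.2 and 42.9 against 87.0 and 55.4, on 2, 2, 1 and 2 summits, and its region changed by -0.02 in the rank score. Tns3 was lower by its weaker summits, while its strongest region, in the 3′ UTR, changed by 0.13. Among the lower ones, Itga9, a receptor for tenascin and osteopontin, went from 92.3 and 89.5 to 53.4 and 79.7, on pileups of 23, 16, 9 and 12. Itga5 went from 87.8 and 89.0 to 85.3 and 84.4, a small shift with no overlap. Among the higher ones, Hspg2 went from 29.1 and 38.0 to 39.2 and 55.9, Lamc1 from 11.8 and 11.4 to 24.4 and 27.1, and Flnc from 47.7 and 40.8 to 60.2 and 70.7. Over the summits of adhesion genes the median background was 2.91 and 2.16 in the shCTR lists and 2.41 and 1.40 in the shMettl14 lists, and its part in these shifts was not tested. Ranks cannot show a loss of m6A that is the same at all sites.

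Adhesion genes outside the 42 were counted for comparison. Of 52 other genes of this system, 15 had a summit in at least 1 list and 12 in all 4, among them Dag1 (dystroglycan), Tnc (tenascin), the kinase Src, the adaptor Crk and Cav1 (caveolin). Vcl, which encodes vinculin, had summits in some lists only. Of their 16 regions found in all 4 lists, 0 passed the adjusted threshold in limma. None had an unadjusted p under 0.05 in either direction, where 2.52% of all regions were lower and 2.41% higher. Of the 12 genes, 2 (with Tnc) were lower in both shMettl14 lists than in both shCTR lists, where 18.4% of all 3492 such genes were. Another 2 (with Dag1) were higher, where 14.6% were.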

How the data were processed

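Mouse primary VSMCs were analysed in 4 IP samples (shCTR and shMettl14, replicates A and B, grouped by sample title). Per the labels and methods, the authors used STAR for alignment to mm10 (GRCm38) and SAMtools to keep unique reads, and MACS2 called the peaks of an IP sample over the matching input; versions and options are not given in the sources used here. The deposited lists give, per summit, the fold enrichment (a ratio of IP pileup to local background, 1 added to each) and −log10 of the p- and q-value, computed by the authors' caller for each list alone. Pileup and background were solved from these values: a whole-number pileup matched within 0.001 in −log10 p for 100% of summits. The deposited overlap files give intervals without values. The input samples entered only as that background.

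Summits (1-based) were placed in exons of GENCODE M21. Positions refer to the transcript with the longest complete coding sequence. Intervals of the 4 lists sharing at least 1 bp were merged into regions. Ranks were tested with limma 3.58.1 (R 4.3.3) without a block, with Benjamini-Hochberg adjustment over all 4929 regions, and single values with an exact permutation test. The limma step and the solving of pileups were tested on simulated data. Scripts ran in Python 3.11.15 with scipy 1.17.1, pandas 2.3.3 and numpy 2.4.6. Totals of reads were not analysed here, and intervals of summit values would cover counting error only.

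The genes, roles and lists were chosen with earlier results of these data known. Named were genes without a summit, per role the 4 genes with most summits and the 3 strongest regions in all 4 lists, regions with an unadjusted p under 0.05 in the rank test (at most 5 per direction), and regions found in both lists of 1 group only (at most 6 of each). Other genes given with values were picked after these were seen. Alternatives were log2 fold enrichment, −log10 p, Fisher's exact test, a replicate block, equal numbers of top summits, a −log10 q of at least 5, merging within 100 bp, other windows, interval midpoints, exon unions, leaving out each list and, chosen after seeing the data, the strongest summit of a gene and equal numbers for the counts of genes.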

Additional observations from a re-analysis of the deposited data

How the results depend on the processing

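Counting each peak interval once in place of each summit gave 0.121 per kb in receptors, 0.0421 in matrix ligands and 0.195 in cytoplasmic adaptors, and dividing by the union of all annotated exons gave 0.132, 0.0492 and 0.203, so the order of the 3 roles did not change under either. The excess of adhesion summits in shMettl14 (4.5) became -2.0 when intervals or their midpoints were counted and ranged from -2.0 to 11.0 when 1 list was left out. The difference in the share near the stop codon ranged from -12.1 to -1.7 points. At a −log10 q of at least 5, 1 region was found in shCTR only and 0 in shMettl14 only. With 1 list left out, 0 to 2 and 0 to 1 regions were. The shares of all regions under these settings are not given here, so these counts cannot be set against them. No adhesion region passed the adjusted threshold under any alternative that kept all 4 lists. With equal numbers of top peaks, 4 of 24 were called before adjustment, where 195 of all 4003 regions were. Under the other settings 2 or 3 of 26 were, where 158 to 292 of all 4929 were. In Actn1 Fisher's exact test on pileups turned the sign, to -0.45, and with −log10 p the change was 0.38. Ranking by −log10 p moved the mean percentile of Lamc1 from 23.7 to 64.8 and of Hspg2 from 68.3 to 94.9, and equal numbers of top peaks moved them to 12.9 and 60.4. In 2 alternatives chosen after seeing the data, the adhesion genes lower (7) and higher (7) in both shMettl14 lists by their mean percentile became 5 and 6 by the strongest summit, and 8 and 3 with equal numbers of top peaks. Replicates share only a letter (correlation of deviations 0.080 over 4929 regions). With a replicate block, 0 adhesion regions passed and 3 had an unadjusted p under 0.05, against 2 without it. Over all 4929 regions, 292 did with the block and 243 without it.

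The depth of the libraries was not measured. Pileups, with a median of 25.5 to 30 fragments over the adhesion summits, limit the precision of single values, and an equal loss of m6A at all sites cannot be seen by rank.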
